A study of Mus musculus with 4 samples.

Results

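The metabotropic glutamate (mGlu) receptors are G-protein-coupled receptors that glutamate activates on neurons and glia. The 6 genes taken here, Grm2, Grm3, Grm4, Grm5, Grm7 and Grm8, are among 18193 genes measured, and all 6 had a probe set. Members were all probe sets that the platform annotation ties to 1 of these symbols and no other, 9 of 34945. Grm5 had 2 such probe sets, Grm7 had 3 and each other gene had 1. A further probe set carries the Grm2 symbol together with another and was left out. Probe sets were kept separate. RNA came from prelimbic cortex, punched out of the medial prefrontal cortex; all mice were male and 90 days old (postnatal day 90). The 2 fluoxetine arrays came from mice with prenatal exposure to fluoxetine, which blocks serotonin reuptake, and the 2 untreated arrays from control mice. Per the labels the arrays within each group are biological duplicates; strain, dose, days of exposure and pooling of mice are not given in the sources used here. Inhibitory synaptic networks are the subject named in the series title.

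The family falls into groups by sequence and coupling. Group I receptors, to which Grm5 belongs, sit mainly around the edge of excitatory postsynapses, couple to Gq and release calcium from stores. Group II receptors (Grm2 and Grm3) and group III receptors (here Grm4, Grm7 and Grm8) couple to Gi/o, lower cyclic AMP and restrain transmitter release at glutamate and GABA terminals, and Grm3 is also a receptor of astrocytes.

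Grm3 was the member with the clearest difference: both fluoxetine arrays read higher than both untreated arrays, by 1.18-fold on average, although this did not pass correction over all probe sets. Both Grm5 probe sets averaged slightly higher on the fluoxetine arrays without passing an unadjusted test. The probe sets of Grm2, Grm4, Grm7 and Grm8 differed by at most 0.097 in either direction on the log2 scale. At an unadjusted p below 0.05 in the limma fit, 1 of the 9 probe sets was higher with fluoxetine, 0 were lower and 8 did not pass. That is 11.1% of the members, against 9.45% of all probe sets (6.4% higher and 3.04% lower), so the members' count lies near the background. No member passed after Benjamini-Hochberg adjustment over 34945 probe sets, where 0.00286% of all probe sets did. The median log2 difference was 0.010 over the 9 member probe sets and −0.0065 over all probe sets.

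**Figure D1:**
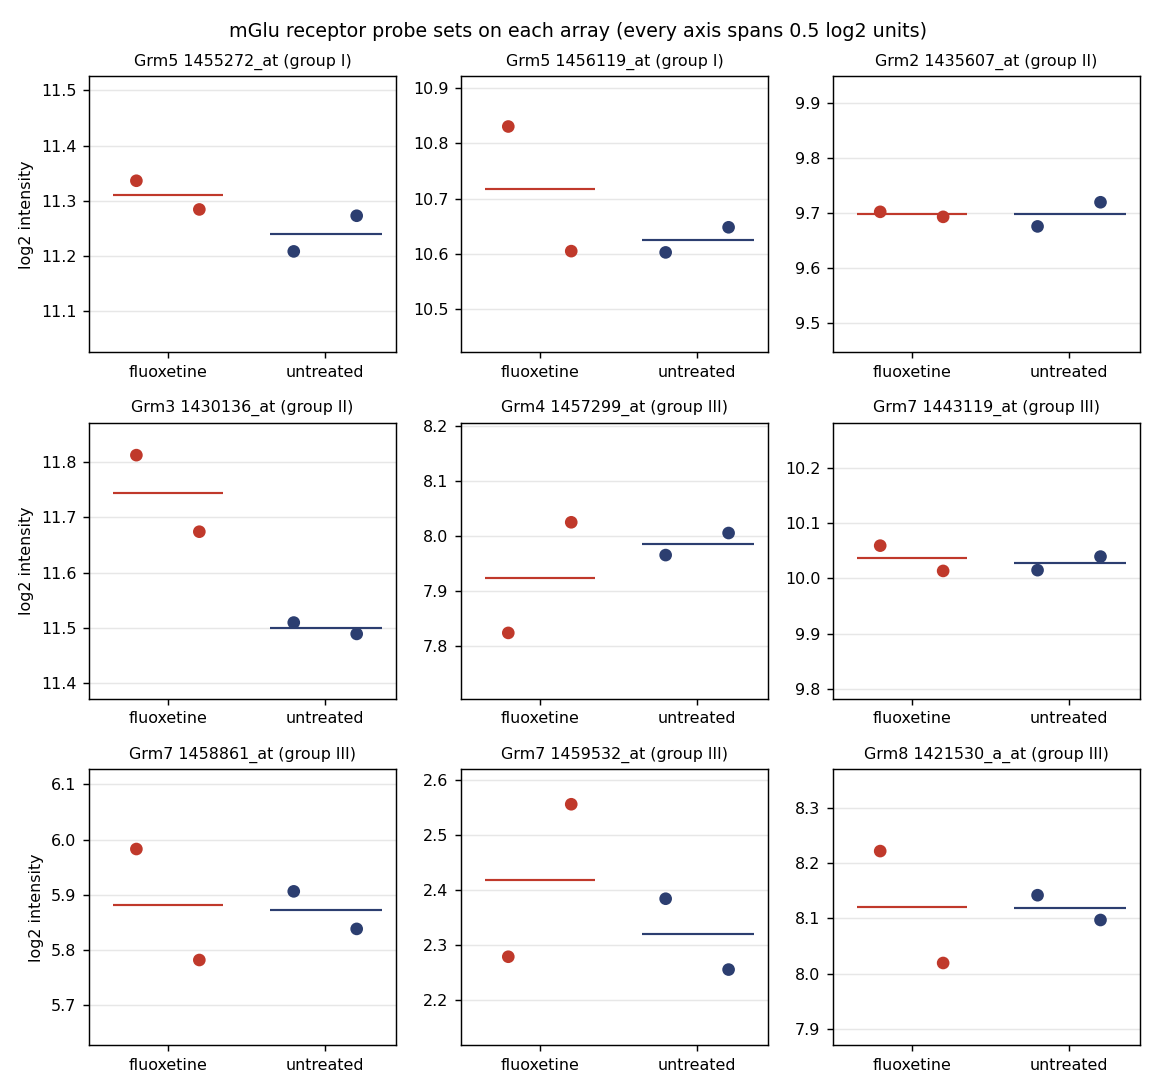
Log2 intensity of the 9 mGlu receptor probe sets (y axes, each spanning the same width) on the 2 fluoxetine arrays (red, left) and the 2 untreated arrays (blue, right); points are arrays and lines are group means. Grm3 at 11.81 and 11.67 with fluoxetine lies above 11.51 and 11.49 without, and in 7 of the 9 panels the groups overlap. In the other 2 panels fluoxetine is higher. Among all 34945 tested probe sets, 19.9% had separate groups with fluoxetine higher and 20.0% with fluoxetine lower.

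The median over the tested probe sets was 7.13 on each fluoxetine array, against 7.11 and 7.14 on the untreated arrays, and the arrays correlated at 0.996 to 0.997 in every pairing. The 10 measured projection neuron markers averaged between 9.41 and 13.92 over the arrays and all lay above the median level of 7.12 over all tested probe sets. Untreated replicate 2 stood apart for markers of the neighbouring striatum, with a mean log2 level over 11 genes of 9.55, against 8.29 and 8.63 on the fluoxetine arrays and 8.44 on the other untreated array. Oligodendrocyte markers were also highest on that array (mean of 11 genes 11.18, against 10.92 to 10.93 elsewhere). Poly-A control RNAs, which are spiked into the sample before labelling, averaged 8.28 and 8.37 on the fluoxetine arrays and 7.99 and 8.19 on the untreated arrays. That is a difference of 0.24, with 24 of 24 probe sets higher and the groups apart in 17. These probe sets repeat the same spiked RNAs (dap, lys, phe and thr) and are not independent readings. For thr the groups overlapped, at 8.44 and 8.64 with fluoxetine and 8.04 and 8.56 without. With 2 arrays against 2, an exact two-sided permutation test cannot give a p below 0.333, and the number of arrays limits the precision of every value.

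Group I was represented by Grm5, the receptor that Homer proteins tether to the postsynaptic density. Its brighter probe set, 1455272_at, read 11.34 and 11.28 with fluoxetine and 11.21 and 11.27 without. The fluoxetine arrays both lay above the untreated ones, but by only 0.011 at the nearest; of all probe sets 19.9% showed this arrangement and 20.0% the opposite one. The log2 difference was 0.070 (SE 0.051, 95% interval −0.050 to 0.19, unadjusted p = 0.210 and adjusted p = 0.705 in limma). For this probe set and variance model the interval is 0.97-fold to 1.14-fold. The second probe set, 1456119_at, read 10.83 and 10.60 with fluoxetine and 10.60 and 10.65 without. Here 1 fluoxetine array was high and the other 3 arrays lay together. The difference of 0.092 (SE 0.079, interval −0.093 to 0.28) rested on fluoxetine replicate 1: it was −0.020 without that array, and 0.21 without fluoxetine replicate 2. Wherever an array is left out, 1 group has a single array that is assumed to vary like the other group, whose 2 arrays alone give the residual spread.

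**Figure D2:**
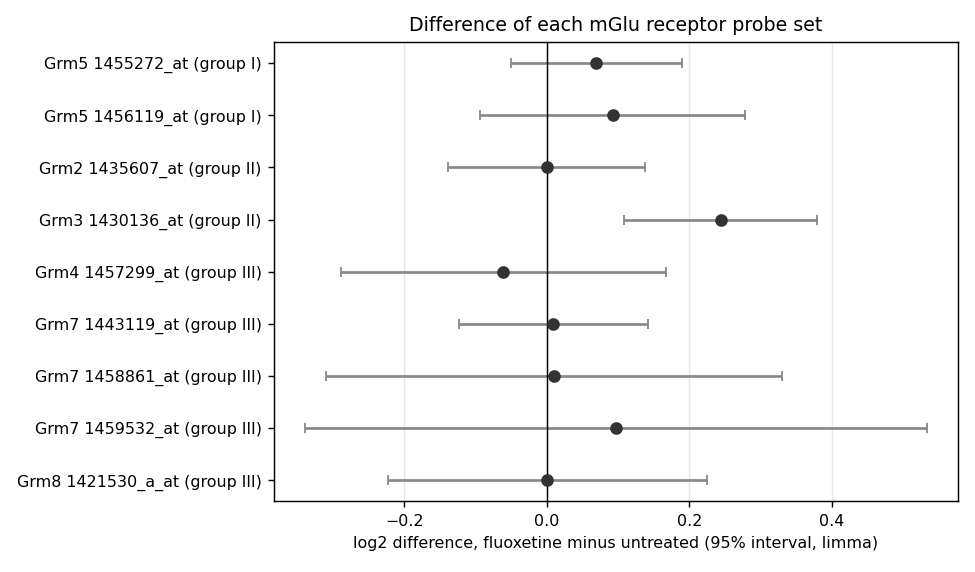
Log2 difference between the mean of the 2 fluoxetine arrays and the mean of the 2 untreated arrays (x axis) for each mGlu receptor probe set (rows, with its receptor group); points are differences and bars are 95% intervals from limma. The Grm3 interval, 0.11 to 0.38, is the one that does not reach 0.

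Grm2 and Grm3 form group II. Grm2 is mainly a presynaptic autoreceptor of glutamate terminals, while Grm3 is found both in neurons and in astrocytes and also responds to the dipeptide N-acetylaspartylglutamate (NAAG). Grm3 (1430136_at) read 11.81 and 11.67 with fluoxetine and 11.51 and 11.49 without. The groups did not overlap, and the gap of 0.16 between their nearest arrays exceeded the range within the fluoxetine group (0.14) and within the untreated group (0.021). Group means were 11.74 ± 0.098 with fluoxetine and 11.50 ± 0.015 without (SD, n = 2 each). The log2 difference was 0.24 (SE 0.057, 95% interval 0.11 to 0.38), a 1.18-fold higher signal with an interval of 1.08-fold to 1.30-fold, at an unadjusted p of 0.00363 and an adjusted p of 0.359 in limma. Among probe sets above the median level, where Grm3 lies, an unadjusted p below 0.05 was reached by 11.7%, of which most were higher (10.0% against 1.68% lower). Over all probe sets such a lean depended on the variance model and on the choice of probe sets. Of those past the threshold 67.8% were higher (2237 against 1064 lower), but 50.3% without the intensity trend (1556 against 1535 lower). With the trend kept and only the probe set with the highest mean per gene, 49.6% were higher (628 against 638 lower). Grm3 had no second probe set against which the difference could be set. With an array left out the difference ran from 0.17 (without fluoxetine replicate 1) to 0.31 (without fluoxetine replicate 2). In this bulk tissue more cells that express a gene and more RNA per cell cannot be told apart.

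Grm2 (1435607_at) read 9.70 and 9.69 with fluoxetine and 9.68 and 9.72 without. Both fluoxetine arrays lay between the untreated arrays, and the group means were equal to the precision of the deposited values, with a 95% interval of −0.14 to 0.14. For this probe set and variance model the interval is 0.91-fold to 1.10-fold. The difference between groups was 0.24 greater for Grm3 than for Grm2. The same comparison of Grm3 with the brightest probe set of each other member gave 0.17 against Grm5, 0.31 against Grm4, 0.24 against Grm7 and 0.24 against Grm8. All 5 contrasts share Grm3, whose own groups stood apart, and are given as a description.

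The sequences upstream of these 2 group II genes are shown because one gave the largest difference of the family and the other gave none. They are the 250 bases before the RefSeq transcription start (GRCm38.p6), read 5′ to 3′ on the gene's strand, Grm3 at chr5:9725353-9725602 and Grm2 at chr9:106656110-106656359, both on the minus strand. Capitals mark matches to any of 7 searched motifs.
Grm3: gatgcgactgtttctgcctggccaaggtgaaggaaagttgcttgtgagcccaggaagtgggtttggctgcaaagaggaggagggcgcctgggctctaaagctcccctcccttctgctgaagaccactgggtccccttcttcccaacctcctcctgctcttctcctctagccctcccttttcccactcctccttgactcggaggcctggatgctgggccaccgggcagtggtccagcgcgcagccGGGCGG
Grm2: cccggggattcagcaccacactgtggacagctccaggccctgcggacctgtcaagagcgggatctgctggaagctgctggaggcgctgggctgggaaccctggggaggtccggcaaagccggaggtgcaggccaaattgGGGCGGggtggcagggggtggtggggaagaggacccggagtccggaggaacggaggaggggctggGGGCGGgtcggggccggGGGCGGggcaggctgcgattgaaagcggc
The motifs, searched on both strands, were the cyclic AMP response element TGACGTCA, the AP-1 site TGANTCA, the GC box GGGCGG, the E-box CACGTG, the EGR site GCGTGGGCG, the TATA box TATAAA and the glucocorticoid half-site AGAACA; the GC box and the EGR site overlap in the letters GGGCG. The matches were all GC boxes, 1 before Grm3 and 3 before Grm2, and 32.7% of 32851 upstream windows of this length hold at least 1. The letters of the other 6 motifs are not in either window; they occur in 1.55%, 6.75%, 6.02%, 0.536%, 12.4% and 16.1% of all windows for the cyclic AMP, AP-1, E-box, EGR, TATA and glucocorticoid motifs in that order. The Grm3 window holds 62.4% G and C and 8 CG dinucleotides, the Grm2 window 71.2% and 16, against medians of 52.4% and 6 over all windows. The table used holds windows for 4 of the 6 members, and those of Grm4 and Grm5 were not used here.

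Markers of several cell types also differed at an unadjusted p below 0.05 in limma. With fluoxetine some were higher for astrocytes, projection neurons and meningeal fibroblasts, and some were lower for oligodendrocytes and 1 for the striatum. Of the 12 astrocyte markers, 3 were higher at an unadjusted p below 0.05 and 0 lower, against 6.66% (3.26% higher and 3.4% lower) over 18193 genes, each by its brightest probe set. Among all probe sets above the median level, where the astrocyte and projection neuron markers lay, 10.0% were higher and 1.68% lower. Gjb6, a gap junction protein of astrocytes, read 10.45 on both fluoxetine arrays and 10.19 and 10.11 on the untreated ones (log2 difference 0.30, SE 0.056). Slc1a3, the astrocytic glutamate transporter GLAST, read 11.62 and 11.77 with fluoxetine and 11.45 and 11.52 without (0.21, SE 0.061). Over its 6 probe sets the difference ran from −0.21 to 0.36, and both ends came from dim probe sets (means 4.72 and 1.37). Slc1a2, the main glutamate transporter GLT-1, differed by 0.10 (SE 0.041). Over 5 probe sets its difference ran from −0.34, in a dim probe set (mean 5.14), to 0.22. The list as a whole did not separate the groups: its mean level was 10.80 and 10.86 with fluoxetine and 10.74 and 10.81 without, with a median difference of 0.026, and no marker averaged below 7.58. Of 10 projection neuron markers, 3 were higher and 0 lower: Fezf2, a transcription factor of deep-layer neurons (0.33, SE 0.085), Neurod6 (0.24, SE 0.077) and Cux2, of upper layers (0.17, SE 0.054; −0.085 to 0.17 over 3 probe sets). With an array left out the 3 astrocyte calls became 1 (without fluoxetine replicate 2) or 2, and the 3 projection neuron calls became 0 without fluoxetine replicate 1 and 2 without untreated replicate 2, while 2 other projection neuron markers were lower without untreated replicate 1; without the intensity trend each list had 1. The projection neuron list averaged 10.88 and 10.80 with fluoxetine and 10.74 and 10.81 without. Of 11 oligodendrocyte markers, 0 were higher and 3 lower: Sox10, a transcription factor of the lineage (−0.26, SE 0.085), Mag, a myelin glycoprotein (−0.24, SE 0.081), and Fa2h, an enzyme of myelin lipid synthesis (−0.25, SE 0.096). The number lower was 0 without untreated replicate 2, where that list was highest, 8 without untreated replicate 1, 0 without fluoxetine replicate 1, 1 without fluoxetine replicate 2, 0 without the intensity trend and 5 after another quantile normalization. Among meningeal fibroblast markers, the matrix gene Dcn differed by 0.23 (SE 0.083), and by 0.033 to 0.23 over 2 probe sets. The matrix gene Col1a2 differed by 0.20 (SE 0.076). Its 3 probe sets ran from −0.83, in a dim one (mean 1.82), to 0.20. These 2 of the 7 markers were higher and 0 were lower. They became 0 without untreated replicate 1 or either fluoxetine array, 1 without the intensity trend and 0 with the mean of a gene's probe sets. The part of these cells and of the poly-A controls, which were higher by the same 0.24 on the same arrays, in the Grm3 difference was not tested. Striatal markers were highest on untreated replicate 2, and the Grm3 difference was 0.23 without that array.

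**Figure D3:**
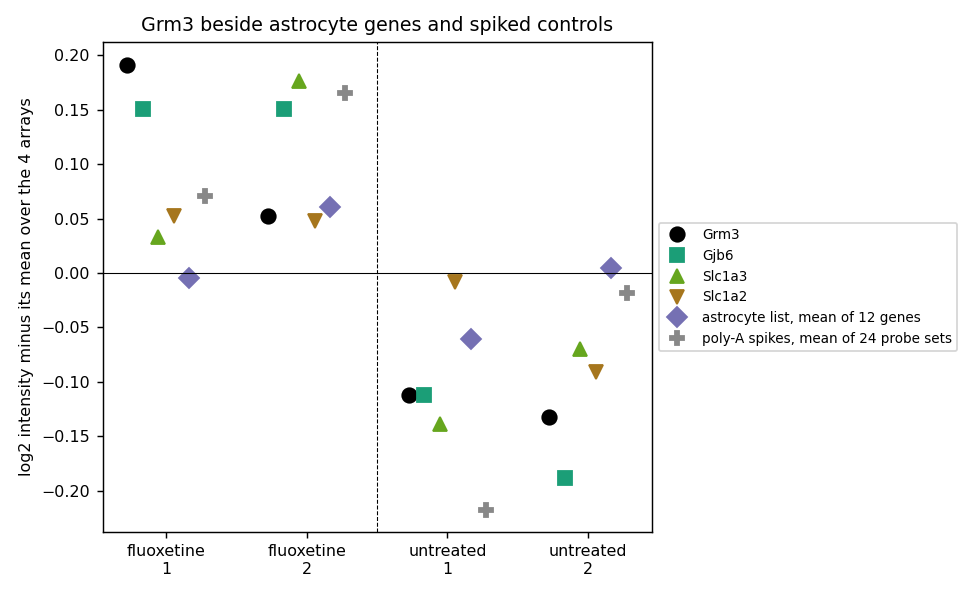
Log2 intensity minus its mean over the 4 arrays (y axis) on each array (x axis, fluoxetine left of the dashed line) for Grm3, 3 astrocyte genes, the mean of the astrocyte list and the mean of the spiked poly-A controls. All lie higher on both fluoxetine arrays except the astrocyte list mean, whose groups overlap (10.80 and 10.86 against 10.74 and 10.81).

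Group III receptors are presynaptic. Grm7 sits in the active zone of many terminals, and Grm4 and Grm8 are autoreceptors of more restricted neurons. The main Grm7 probe set, 1443119_at, read 10.06 and 10.01 with fluoxetine and 10.01 and 10.04 without, and the arrays of the groups were interleaved. Its log2 difference was 0.0092 (SE 0.056, 95% interval −0.12 to 0.14). The other 2 Grm7 probe sets were dim. Probe set 1458861_at read 5.98 and 5.78 with fluoxetine and 5.91 and 5.84 without (difference 0.010, SE 0.14). Probe set 1459532_at read 2.28 and 2.56 with fluoxetine and 2.38 and 2.26 without (difference 0.097, SE 0.18). Both lay below the median level of 7.12 over all tested probe sets and among the levels of 20 genes of other tissues such as liver, testis and pancreas, which averaged 1.24 to 8.02. These 2 probe sets bound a change of Grm7 only loosely, with intervals of −0.31 to 0.33 and −0.34 to 0.53.

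Grm4 (1457299_at) read 7.82 and 8.02 with fluoxetine and 7.97 and 8.01 without. The fluoxetine arrays enclosed the untreated ones. The mean of 7.95 lay within the 1.24 to 8.02 of the genes of other tissues, but of these only Cela1, at 8.02, averaged higher. The next, Prm1, averaged 7.14. The difference was −0.061 (SE 0.097, 95% interval −0.29 to 0.17), and it was 0.039 without fluoxetine replicate 1. Grm8 (1421530_a_at) read 8.22 and 8.02 with fluoxetine and 8.14 and 8.10 without, again with the fluoxetine arrays on either side, for a difference of 0.0010 (SE 0.095, interval −0.22 to 0.23). In Grm5 1456119_at, Grm3, Grm4, Grm8 and the dim Grm7 probe sets the fluoxetine arrays lay further apart (0.14 to 0.28) than the untreated arrays (0.021 to 0.13).

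**Figure D4:**
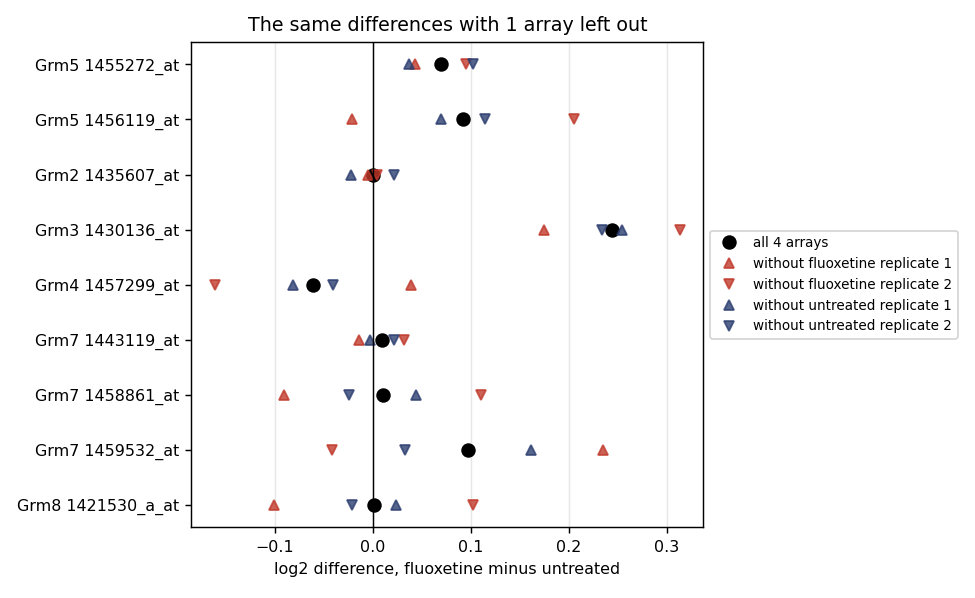
Log2 difference, fluoxetine minus untreated (x axis), for each mGlu receptor probe set (rows) with all 4 arrays (black circles) and with 1 array left out (triangles, by the array left out). Grm3 stays between 0.17 and 0.31, both signs occur for Grm2, Grm4, Grm7, Grm8 and the second Grm5 probe set, and the first Grm5 probe set stays between 0.037 and 0.10.

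The genes around the receptors were described through 4 lists, each gene by its brightest probe set. Of 88 entries 76 were measured and the other 12, without a named probe set, were not analysed here. No gene passed after adjustment over all probe sets by its brightest probe set. In the group I cascade, from Gq to protein kinase C, 0 of 13 genes were higher and 0 lower by the same unadjusted threshold (median log2 difference −0.0060, against −0.020 over all genes). Gnaq, the Gq alpha subunit, had a difference of 0.088 (SE 0.050; −0.033 to 0.40 over 7 probe sets, of which 2 passed the unadjusted p). Plcb1, the phospholipase C downstream of it, had one of −0.064 (SE 0.048). Over its 5 probe sets the difference ran from −0.37, in a dim probe set (mean 3.52), to 0.23, and 1 passed the unadjusted p. Among 21 genes of Gi/o coupling and cyclic AMP, 2 were higher (9.52%) and 0 lower (median 0.010), beside 3.26% higher and 3.4% lower over all genes. All but 1 of the 21 lay above the median level, where 10.0% of all probe sets were higher and 1.68% lower. The higher genes were Prkaca, a catalytic subunit of protein kinase A (0.15, SE 0.057), and Prkar1a, a regulatory subunit (0.12, SE 0.048). These 2 became 0 without fluoxetine replicate 1 or untreated replicate 2, and 0 without the intensity trend. A second probe set of Prkaca differed by −0.013, and the 3 of Prkar1a ran from −0.38 to 0.39.

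Receptor scaffolds and regulators gave 3 higher (11.5%) and 1 lower of 26 genes (median −0.0097), beside 3.26% and 3.4% over all genes. All but 2 of the 26 lay above the median level, where 10.0% of all probe sets were higher and 1.68% lower. Elfn2, a postsynaptic adhesion protein that binds group III receptors across the synapse, read 9.07 and 9.00 with fluoxetine and 8.77 and 8.64 without (log2 difference 0.33, SE 0.078). Its groups did not overlap, while its paralog Elfn1 differed by −0.025 (SE 0.078). Rgs7, a regulator that speeds the shut-off of Gi/o signals, differed by 0.14 (SE 0.047), and Fmr1, whose protein represses translation downstream of group I receptors, by 0.16 (SE 0.061; −0.12 to 0.22 over 3 probe sets). Shank1, a scaffold that Homer links to mGlu receptors, was the lower gene (−0.31, SE 0.10, from a probe set below the median level). The 3 higher genes became 1 without fluoxetine replicate 1 and 1 without the intensity trend. The Grm7-binding protein gene Pick1 differed by −0.037 (SE 0.076) and Ncdn, which encodes the group I regulator neurochondrin, by −0.055 (SE 0.048). Homer1, the scaffold of Grm5, differed by 0.023 (SE 0.044) with its brightest probe set, but by up to 1.08 over its 6 probe sets. Probe set 1436387_at of Homer1 was the 1 probe set of all 34945 past adjustment (adjusted p = 0.0116 in limma; 11.04 and 10.99 with fluoxetine, 9.88 and 9.99 without); with any 1 array left out its difference was 1.03 to 1.13 and its adjusted p 0.225 to 0.604 in limma, and without the intensity trend the adjusted p was 0.540.

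Genes that supply or remove glutamate and NAAG gave 5 higher (31.2%) and 0 lower of 16 (median 0.014), beside the background of 3.26% and 3.4%. All but 3 of the 16 lay above the median level, where 10.0% of all probe sets were higher and 1.68% lower. Besides Slc1a3 and Slc1a2, which the astrocyte list also holds, the higher genes were the amino acid transporter gene Slc38a2, which carries glutamine (0.22, SE 0.061; −0.040 to 0.22 over 3 probe sets), Got1, an aminotransferase that interconverts aspartate and glutamate (0.11, SE 0.039), and Slc7a11, the cystine-glutamate exchanger (0.40, SE 0.15). Slc7a11 read 7.09 and 6.84 with fluoxetine and 6.73 and 6.41 without, at a level below the median, and its other probe set differed by 0.024. Slc17a7, the vesicular glutamate transporter of cortical projection neurons, differed by 0.010 (SE 0.062). The 5 higher genes became 1 to 3 with an array left out (1 without fluoxetine replicate 1, 2 without fluoxetine replicate 2, 3 without either untreated array), 3 with the mean of a gene's probe sets and 0 without the intensity trend. The poly-A controls were higher by 0.24 on the same arrays; their part was not tested.

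**Figure D5:**
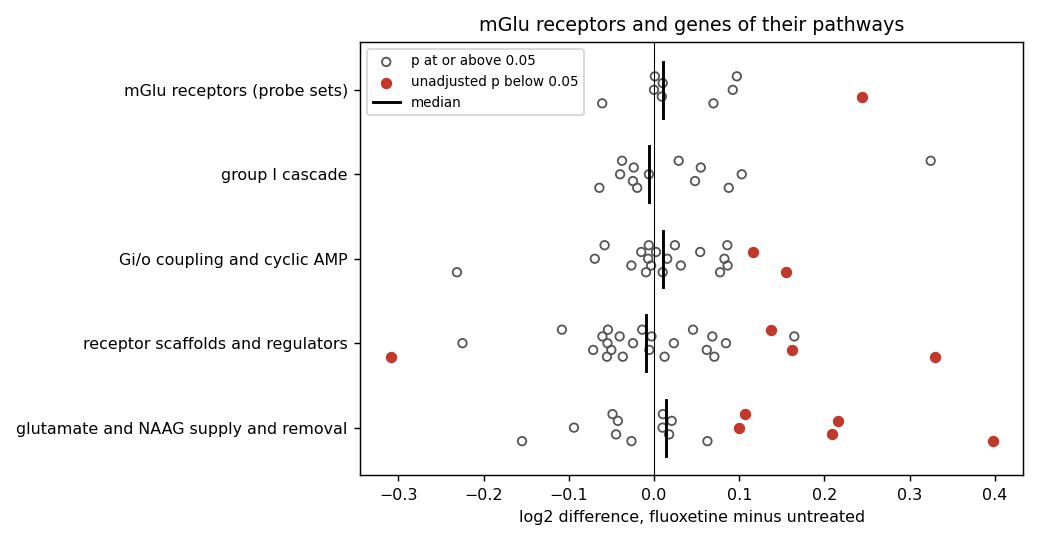
Log2 differences, fluoxetine minus untreated (x axis), of the 9 mGlu receptor probe sets and of the genes of 4 lists by their brightest probe set (rows); filled red points have an unadjusted p below 0.05 and bars mark medians. The medians lie between −0.0097 and 0.014, and 5 of 16 genes of glutamate and NAAG supply and removal are filled.

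By the values over the 4 arrays, each centred on its own mean, the probe set most like Grm3 among 17472 above the median level was one of Fam20b, at a root mean square distance of 0.0046 on the log2 scale, where Grm3 itself spread by 0.13 around its mean. Fam20b read 8.37 and 8.23 with fluoxetine and 8.07 and 8.04 without. The nearest to the brightest Grm5 probe set was one of Itfg1 (distance 0.0012), to Grm2 one of Camsap3 (0.0024), to Grm4 one of Ntrk2 (0.0043), to Grm7 one of Nae1 (0.0021) and to Grm8 one of Igfbp5 (0.0065). With 4 arrays and this many probe sets close matches are common, and these are given as a description.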

How the data were processed

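The table deposited by the authors holds log2 intensities, 1 per probe set and array, from mouse Affymetrix 3′ expression arrays summarised with RMA; affy and limma are also named, per the submitters' processing notes, and versions are not given in the sources used here. Labelling started from 250 ng of total RNA, per the labels' protocols. The table held 45101 probe sets: 64 array controls, 34945 with 1 gene symbol in the platform annotation, 932 with several and 9160 unnamed here.

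All 34945 were fitted with limma 3.58.1 in R 4.3.3 (lmFit and eBayes with trend). Tests were two-sided, adjusted by Benjamini-Hochberg, at a threshold of 0.05. There were 2 residual and 5.11 prior degrees of freedom. No filter on low values was applied, so all 9 member probe sets were tested. P-values reflect only the spread among these samples, since the labels name no separate litters. Replicates were numbered by order and pair nothing. Background signal can shrink the log2 difference of a dim transcript.

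The members and lists were chosen with earlier results of these data known. Genes named were every member, up to 4 per list and direction at an unadjusted p below 0.05, 9 fixed genes and the nearest pattern of each member; the other Homer1 probe sets were singled out after their values were seen. Alternatives changed the variance model, scaling, filter, probe sets tested, probe set choice and arrays. Tested on simulated data of the same 34945 probe sets and group sizes, the fit of fluoxetine against untreated recovered 64.1% of 1.5-fold, 94.3% of 2-fold and 100% of 3-fold changes. The simulated noise was normal and independent between probe sets, with the spread fitted by limma, and every planted change was upward. It held none of the differences between arrays described above, so these shares need not hold for the real arrays.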

Additional observations from a re-analysis of the deposited data

How the results depend on the processing

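The Grm3 difference was 0.21 to 0.24 in the 7 alternatives with all arrays, at an unadjusted p of at most 0.0402 and an adjusted p of at least 0.231 in limma. Only subtracting array medians (0.235) and another quantile normalization (0.211) alter the Grm3 values. The other alternatives leave its single probe set as it is, so the difference could not move there and only its p-value could. With an array left out it was 0.17 to 0.31; p-values there, as in every count with an array left out, assume that the single array of 1 group varies like the other group, and are no sign of stability. The count of member probe sets at an unadjusted p below 0.05 was 1, and 1 to 2 with an array left out. The count of all probe sets past adjustment was 1, 0 without the intensity trend, 0 with the highest or mean probe set per gene, and 0 to 1 with an array left out; the 1 called without untreated replicate 1 was a probe set of Gt(ROSA)26Sor. The count at an unadjusted p below 0.05 was 3301, 2047 above the median level, 1266 and 1558 with the highest and the mean probe set per gene (fewer features tested), and 1044 (without fluoxetine replicate 1) to 3466 with an array left out. Without the intensity trend the higher counts of Gi/o, scaffold and glutamate genes were 0, 1 and 0. After subtracting array medians they were 1 higher for Gi/o and 2 lower for scaffolds, and after another quantile normalization 1 higher for the group I cascade, 1 higher for Gi/o and 2 lower for scaffolds. Above the median level 0 scaffold genes were lower. With mean probe sets the counts were 1 higher for the group I cascade, 4 for Gi/o, 3 for glutamate and 2 lower for scaffolds. With an array left out they ran from 0 to 0 for the group I cascade, 0 to 3 higher and 0 to 1 lower for Gi/o, 1 to 3 and 0 to 2 for scaffolds and 1 to 3 and 0 to 1 for glutamate. Signs turned as follows: Grm8 to −0.0079 after subtracting array medians and −0.024 after quantile normalization, Grm7 1443119_at and Slc17a7 each to −0.028 after quantile normalization, and with mean probe sets Slc1a2 to −0.028, Plcb1 to 0.030, Col1a2 to −0.17 and Pick1 to 0.052; of these Slc1a2 (0.10) and Col1a2 (0.20) had an unadjusted p below 0.05 by their brightest probe sets. Left-out ranges that cross 0 were −0.020 to 0.21 for Grm5 1456119_at, −0.022 to 0.022 for Grm2, −0.16 to 0.039 for Grm4, −0.014 to 0.032, −0.090 to 0.11 and −0.041 to 0.24 for the Grm7 probe sets, −0.10 to 0.10 for Grm8, −0.016 to 0.036 for Slc17a7, −0.012 to 0.059 for Homer1 1437363_at, −0.10 to 0.029 for Pick1 and −0.11 to 0.0029 for Ncdn, and for list medians −0.019 to 0.034 (group I cascade), −0.0017 to 0.047 (Gi/o), −0.039 to 0.028 (scaffolds) and −0.030 to 0.079 (glutamate). List medians also turned sign. After quantile normalization Gi/o went to −0.018 and glutamate to −0.017, and with mean probe sets the group I cascade went to 0.055 and scaffolds to 0.050. Of the values of single probe sets and list medians, 343 were counted as unchanged, which for list medians did not require the same sign. A further 89 lost and 2 gained an unadjusted p below 0.05, and 4 moved by more than the replicate spread. Except where stated, the cause was not tested. No paired analysis was possible because the labels give no replicate numbers shared between groups.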

Other observations

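Prkar1a, which encodes a regulatory subunit of protein kinase A, had a larger difference in another probe set than in its brightest one, singled out here after its values were seen. Probe set 1425550_a_at read 11.80 and 11.77 with fluoxetine and 11.39 and 11.41 without, a log2 difference of 0.39 (SE 0.045), while 1447635_at, at a mean of 6.19, differed by −0.38 (SE 0.18).

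The equal group means of Grm2 have a counterpart elsewhere in the table. In 343 of 34945 probe sets (0.982%) the highest and lowest of the 4 values had the same sum as the middle values within 1e-07 on the log2 scale, and 92 probe sets (0.263%) had equal means in the fluoxetine and untreated groups within that tolerance. Grm2 was the 1 of the 9 mGlu receptor probe sets with this symmetry.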
